A study of Mus musculus with 2 samples.

Results

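Of the 40879 gene symbols counted in mouse intestine, 32 genes of enteric neurons and glia were taken by symbol, 25 for neurons and 7 for glia and their neural crest precursors. The enteric nervous system is the network of neurons and glia inside the gut wall, and it descends from neural crest cells that migrate into the gut. Its neurons lie in a plexus between the muscle layers and another under the mucosa, drive or relax the smooth muscle, and adjust secretion and blood flow. They are classed by the transmitters they make, with acetylcholine and tachykinins typical of excitatory motor neurons, and nitric oxide and vasoactive intestinal peptide of inhibitory ones. Enteric glia surround the neurons and reach into the mucosa.

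Intestine of WT mice was compared with intestine of ERAP1+/- mice, in which Cre recombinase was meant to remove exons 6 and 7 of 1 copy of Erap1, an aminopeptidase of the endoplasmic reticulum that trims peptides for MHC class I. All mice were C57BL/6, 8 weeks old at the start, described as germ-free yet housed in a specific pathogen-free facility, and given water alone for 28 days. The strain that supplied Cre was not named. The labels and methods call the sequenced tissue intestine, and the paper elsewhere calls it colon. Equal amounts of RNA of 3 mice were pooled into 1 library per genotype, so no value below has a replicate check and no test between genotypes could be made.

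Each library held whole-number counts of reads from the 3' ends of transcripts, 8114826 reads for WT and 8907515 for ERAP1+/-. Erap1 itself had 229 reads in WT and 2 in the other library, 0.730% of the WT level (95% interval 0.0878% to 2.67%), which goes against a genotype that keeps 1 intact copy. These reads lie at the 3' end, outside exons 6 and 7, and so do not show the deletion itself, and below the second library is called the library labelled ERAP1+/-. The sex of the mice was not given in the sources used here. Xist, which female cells express from 1 of their X chromosomes, was counted 1635 times in WT and 6451 times in the library labelled ERAP1+/-. In the same order, 4 Y-linked genes together were counted 612 and 46 times. The libraries thus differed in their share of RNA from female and male mice, and sex cannot be told apart from genotype. Markers of skeletal muscle (14 of 14 lower, summed 1213 CPM in WT and 29.0 in the library labelled ERAP1+/-) and of epidermis (12 of 12 lower, 2945 and 37.5 CPM) were far higher in the WT library.

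Levels are given as CPM, reads per 1000000 reads of the library after scaling by TMM (trimmed mean of M values), on which 1 read is worth 0.129 CPM in WT and 0.107 CPM in the library labelled ERAP1+/-. Since reads were primed from the 3' end, levels were not divided by transcript length. A difference is the change in log2(CPM + 1), library labelled ERAP1+/- minus WT, a scale that understates the change of low genes. A ratio is the scaled reads of the library labelled ERAP1+/- over those of WT. Its exact conditional binomial 95% interval treats each read as independent and covers counting error only, not differences between mice. In whole tissue, fewer cells of a type and less RNA per cell cannot be told apart.

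Most neuron members were higher in the library labelled ERAP1+/-, with Nefm, Ret and Tac1 lower beyond counting error, and glia members were divided, with Foxd3 higher beyond it and Erbb3 lower. Of the 30 members with at least 10 reads over both libraries, 21 were higher and 9 lower, with a median difference of 0.61, where the median over the 16142 genes with as many reads was 0.002. Among 24 neuron members 19 were higher and 5 lower, with a median of 0.71. The 6 glia members had 2 higher and 4 lower and a median of -0.15. Summed over the members, the neuron genes had 2032 reads in WT and 3722 in the library labelled ERAP1+/-, or 261.5 and 400.1 CPM, a ratio of 1.53 (95% interval 1.45 to 1.62). The glia genes had 889 and 900 reads, or 114.4 and 96.75 CPM, a ratio of 0.846 (0.770 to 0.929). That glia sum rests on 1 gene, Erbb3, without which it was 157 and 182 reads with a ratio of 0.968 (0.778 to 1.21). The direction of both sums turned under another scaling. Scaled to smooth muscle genes the glia ratio was 1.61, and scaled to enteroendocrine genes the neuron ratio was 0.606. Both values follow by construction from the change of the list scaled to. The summed ratio was 0.527 for smooth muscle genes and 2.53 for enteroendocrine genes. They therefore do not test the sums.

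The counting interval lay wholly above 1 for 16 of the 30 members, where 20.6% of all genes had such an interval, and wholly below 1 for 4 (Nefm, Ret, Tac1 and Erbb3), where 23.8% of all genes did. For the other 10 it included 1. With at least 10 reads in either library asked for, 30 members qualified and 7 differed by more than 2-fold on the log2(CPM + 1) scale, against 9.06% of all 15334 genes that qualified. All 7 were higher (Stmn3, Vip, Calb2, Scg3, Dbh, Gap43 and Foxd3), a direction shown by 3.14% of genes, and none was lower, the direction of 5.92%. Of the 30, Chat, Dbh and Foxd3 qualified through the library labelled ERAP1+/- alone, where they had to be higher. Under a stricter rule that asks for at least 4 on the log2(CPM + 1) scale, or 15 CPM, in either library, 11 members qualified and 3 differed by more than 2-fold (Vip, Calb2 and Gap43). The same rule took 5.34% of all 8013 qualifying genes, 1.39% as higher and 3.96% as lower. Calb2 and Gap43, with Syt1, reached 15 CPM in the library labelled ERAP1+/- alone. The member just past 2-fold was Gap43 with a difference of 1.05, and the one just short of it was Uchl1 with 0.98.

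**Figure D1:**
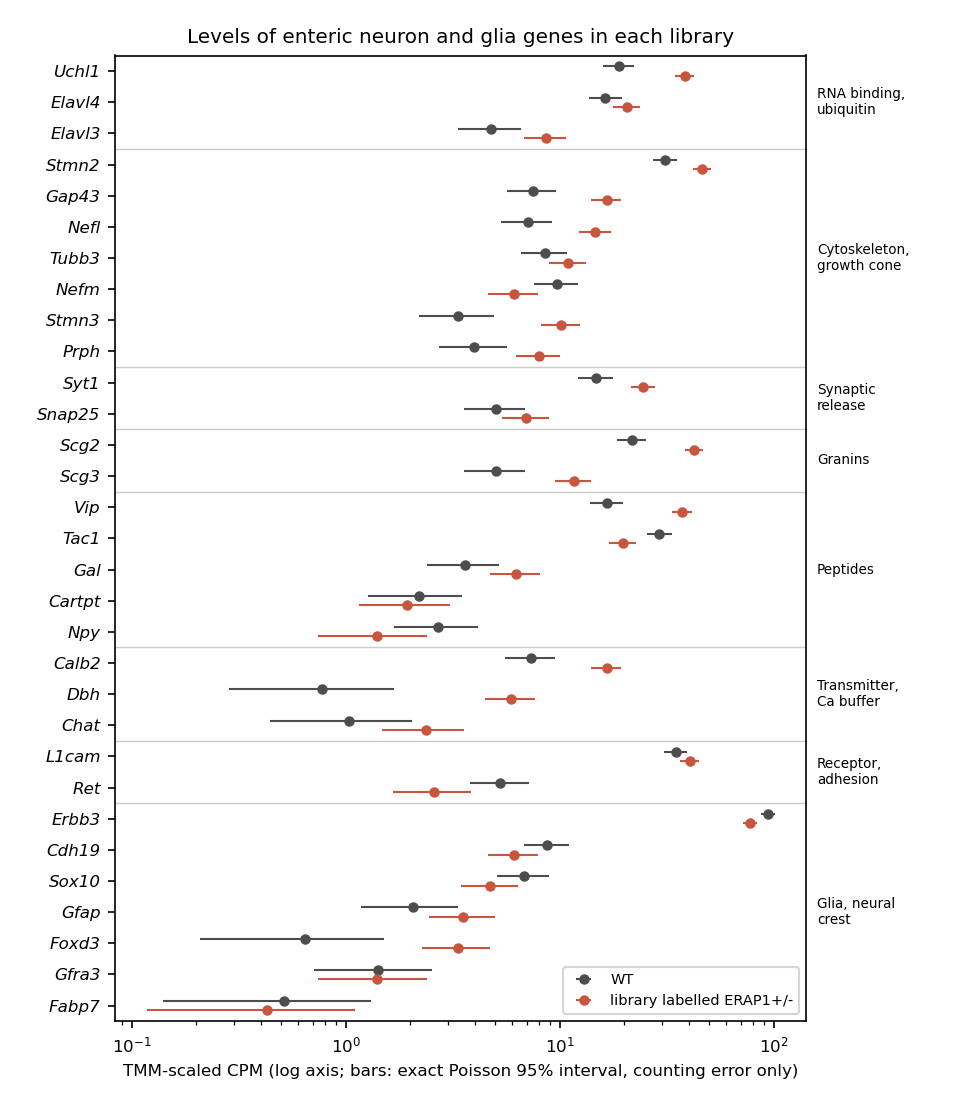
Level of each member in CPM on a log axis, with 1 point for WT and 1 for the library labelled ERAP1+/-, ordered by role. The bars are 95% intervals that cover counting error only. Th, with 1 and 0 reads, is not drawn. Erbb3 has the highest level in both libraries, and Dbh and Foxd3 show the widest gaps.

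The Elavl genes encode RNA-binding proteins (HuC and HuD) used to count enteric neurons, because they are found in the cell body of nearly every one. Elavl3 had 37 reads in WT and 80 in the library labelled ERAP1+/-, or 4.76 and 8.60 CPM, a ratio of 1.81 (1.21 to 2.74). Elavl4 had 127 and 192 reads, or 16.3 and 20.6 CPM, a ratio of 1.26 (1.004 to 1.59). Both were higher in the library labelled ERAP1+/-, Elavl4 with an interval that barely cleared 1. Within a library, the number of Elavl3 reads per Elavl4 read was 0.291 in WT and 0.417 in the other, and the interval of the change in that ratio included 1 (1.43, 0.894 to 2.31). Uchl1 encodes the ubiquitin hydrolase PGP9.5, another general neuron marker that enteroendocrine cells also make. It had 147 and 356 reads, or 18.9 and 38.3 CPM, with a ratio of 2.02 (1.67 to 2.47). Its difference of 0.98 fell just short of the 2-fold line because of the added 1 CPM.

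Cytoskeletal genes of neurons were mostly higher, with 1 exception. The stathmins are tubulin-binding proteins of growing axons. Stmn2 had 242 and 429 reads (31.1 and 46.1 CPM, ratio 1.48, interval 1.26 to 1.74). Stmn3, on the minus strand of chr2:181306459-181314500, had 26 reads in WT and 94 in the library labelled ERAP1+/-, or 3.35 and 10.1 CPM, a ratio of 3.02 (1.94 to 4.86). Stmn3 reads per Stmn2 read were 0.107 and 0.219, a change of 2.04-fold (1.27 to 3.37), so the pair was not higher by the same factor. Tubb3, the neuronal beta-tubulin, had 66 and 102 reads with a ratio of 1.29 whose interval included 1 (0.938 to 1.79). Gap43, a growth cone protein that enteric neurons keep in adult life, lies on chr16:42248442-42340651. It had 58 and 154 reads, or 7.46 and 16.6 CPM, a ratio of 2.22 (1.63 to 3.05).

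The intermediate filament genes did not move together. Prph encodes peripherin, the filament of peripheral neurons, and had 31 and 74 reads, a ratio of 1.99 (1.30 to 3.14). Nefl, the light neurofilament subunit, had 55 and 136 reads, or 7.08 and 14.6 CPM, and was 2.07 times the WT level (1.50 to 2.88). Nefm, the middle subunit that assembles with it, had 75 reads in WT and 57 in the library labelled ERAP1+/-, or 9.65 and 6.13 CPM, and was 1.58-fold lower (1.10 to 2.26). Nefl reads per Nefm read were thus 0.733 in WT and 2.39 in the other library, a 3.25-fold change (1.99 to 5.32). This pair, like the other pairs within a library, was chosen after the values were seen. In the annotation the Nefl gene (chr14:68083863-68089095, plus strand) lies inside the span of Nefm (chr14:68082590-68124846, minus strand), and whether reads were assigned by strand was not stated.

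The release machinery of synaptic vesicles was represented by Snap25, a membrane SNARE, and Syt1, the calcium sensor of release, which endocrine cells of the epithelium also use. Snap25 had 39 and 65 reads and a ratio of 1.39 with an interval that included 1 (0.922 to 2.13). Syt1 had 115 and 228 reads, or 14.8 and 24.5 CPM, a ratio of 1.66 (1.32 to 2.09). The granins are acidic proteins of dense-core vesicles, in which peptides are stored, in neurons and endocrine cells alike. Scg2 had 169 reads in WT and 394 in the library labelled ERAP1+/-, or 21.8 and 42.4 CPM, a ratio of 1.95 (1.62 to 2.35). Scg3 had 39 and 108 reads, or 5.02 and 11.6 CPM, a ratio of 2.31 (1.59 to 3.43). Scg3 per Scg2 was 0.231 and 0.274, which differed by less than counting error (1.19, 0.779 to 1.84).

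Among the peptide transmitters, Vip was higher and Tac1 lower. Vip encodes vasoactive intestinal peptide, which relaxes smooth muscle and drives secretion, on the plus strand of chr10:5639218-5647617. It had 129 reads in WT and 348 in the library labelled ERAP1+/-, or 16.6 and 37.4 CPM, a difference of 1.13 and a ratio of 2.25 (1.84 to 2.78). Tac1 encodes substance P and neurokinin A, which contract the muscle, on chr6:7554879-7565834. It had 227 and 183 reads, or 29.2 and 19.7 CPM, and was 1.49-fold lower (1.22 to 1.81). The order of these peptides by reads was therefore opposite in the libraries, with 0.568 Vip reads per Tac1 read in WT and 1.90 in the library labelled ERAP1+/-, a 3.35-fold change (2.50 to 4.48).

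The other 3 peptides had fewer reads. Galanin, encoded by Gal and made by secretomotor neurons, had 28 and 58 reads and a ratio of 1.73 (1.08 to 2.82). Cartpt encodes the CART peptide of myenteric neurons and had 17 and 18 reads, a ratio of 0.884 (0.430 to 1.83). Npy, the neuropeptide Y gene of enteric and sympathetic neurons, had 21 reads in WT and 13 in the library labelled ERAP1+/-, a ratio of 0.517 whose interval reached past 1 (0.238 to 1.08). Of the 5 peptides, then, 2 were higher and 3 lower, with a median difference of -0.12.

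Genes of transmitter synthesis were few in reads. Chat makes acetylcholine, the main excitatory transmitter of the gut, and had 8 reads in WT and 22 in the library labelled ERAP1+/-, a ratio of 2.30 (0.985 to 5.97). Slc18a3, which loads acetylcholine into vesicles and is annotated inside Chat on the same strand, had 14 and 21 reads. Calb2 encodes calretinin, a calcium buffer of excitatory and intrinsic sensory neurons whose staining is used to look for missing ganglia. It lies on chr8:110137502-110168210 and had 57 and 154 reads, or 7.34 and 16.6 CPM, a ratio of 2.26 (1.66 to 3.12). Calretinin and Tac1 often mark the same excitatory neurons, yet Calb2 reads per Tac1 read were 0.251 in WT and 0.842 in the library labelled ERAP1+/-, a 3.35-fold change (2.30 to 4.90).

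Dbh had the widest difference among the members. It encodes dopamine beta-hydroxylase, which makes noradrenaline from dopamine, and lies on chr2:27165233-27183200. It had 6 reads in WT and 55 in the library labelled ERAP1+/-, or 0.772 and 5.91 CPM, a difference of 1.96 and a ratio of 7.66 (3.30 to 21.8). Th, the tyrosine hydroxylase that starts the same pathway, had 1 read in WT and 0 in the library labelled ERAP1+/-. With 0 reads counted, a true level of up to 3 reads (0.322 CPM) remains possible, so Th could not be measured at this depth and no ratio is given. Whether Th, which precedes Dbh in noradrenaline cells, went with it could thus not be told.

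Ret and L1cam act on the neuron's surface. Ret, the receptor of glial cell line-derived neurotrophic factor (GDNF) whose loss leaves the distal gut without ganglia, lies on chr6:118151745-118197718. It had 41 reads in WT and 24 in the library labelled ERAP1+/-, or 5.28 and 2.58 CPM, and was 2.05-fold lower (1.21 to 3.54). Dbh reads per Ret read were 0.146 and 2.29, a 15.7-fold change (5.50 to 50.02). This pair was chosen after the values were seen. It joins the highest and lowest ratios among members with at least 10 reads over both libraries, and its interval does not allow for that choice. Dbh had only 6 reads in WT. The adhesion molecule L1cam had 271 and 378 reads, or 34.9 and 40.6 CPM, with a ratio of 1.17 whose interval included 1 (0.994 to 1.37). Arhgap4, which is annotated over part of L1cam on the same strand, had 13 reads in each library.

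Glia genes split, with Foxd3 and Gfap on one side and Sox10, Cdh19 and Erbb3 on the other. Sox10, the transcription factor that neural crest cells need and enteric glia keep, had 53 reads in WT and 44 in the library labelled ERAP1+/-, or 6.82 and 4.73 CPM, a ratio of 0.694 (0.454 to 1.05). Cdh19, a cadherin of glial precursors and Schwann cells, had 68 and 57 reads, a ratio of 0.700 (0.484 to 1.01). Erbb3, the neuregulin receptor that glial precursors depend on, had 732 and 718 reads, or 94.2 and 77.2 CPM, a ratio of 0.819 (0.738 to 0.909). Gut epithelium also makes Erbb3, so its level is not a measure of glia alone. The values of Sox10 and Cdh19 lay below those of WT with intervals that included 1, and that of Erbb3 lay wholly below 1.

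Foxd3, a transcription factor of neural crest progenitors, had 5 reads in WT and 31 in the library labelled ERAP1+/-, or 0.644 and 3.33 CPM, a ratio of 5.18 (1.996 to 17.1). Per Sox10 read there were 0.0943 Foxd3 reads in WT and 0.705 in the library labelled ERAP1+/-, a 7.47-fold change (2.55 to 26.3). Gfap, the glial intermediate filament that is raised in reactive glia, had 16 and 33 reads, a ratio of 1.72 (0.922 to 3.35). Gfap reads per Sox10 read were 0.302 and 0.750, a 2.48-fold change (1.15 to 5.48). Gfra3, the artemin co-receptor, had 11 and 13 reads and a ratio of 0.987 (0.408 to 2.43). Fabp7, a fatty acid binding protein of glial precursors, had 4 reads in each library, too few for a comparison.

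Promoters were read for the members to see which letters of a known neuronal or cyclic AMP element lie next to their starts. The RefSeq table (GRCm38.p6) held 26 promoters of 21 members, from 250 bases before the start to 50 after it. The table gave no entry for Snap25, Stmn2, Nefl, Nefm, Ret, Calb2, Gap43, Sox10, Gfra3, Erbb3 and Cdh19. The cyclic AMP response element, TGACGTCA, which reads the same on both strands, was in 4 of the 26 (15.4%), those of Scg2, Foxd3, Th and Cartpt, and in 588 of all 32851 promoters (1.79%). The RE1 element, bound by the repressor REST that keeps neuronal genes off in other cells, was searched as its left and right parts on both strands. TTCAGCACC was in the Scg2 promoter alone among the members (3.85% of 26, against 0.371% of all) and GGACAGC in those of Cartpt, Scg2, Tubb3 and Vip (15.4%, against 6.56% of all). In Scg2 the GGACAGC part begins 14 bases before the start and the TTCAGCACC part 7 bases before it. Both read as their reverse complements (GCTGTCC and GGTGCTGAA) on the gene's own strand. They abut with no base between them and do not overlap the cyclic AMP element. The TTCAGCACC part runs past the start, so the printed bases hold only some of it. Whether parts so spaced form a whole RE1 element was not tested. A match describes the letters and is not evidence that a factor binds there. The 250 bases before the start of the 4 members with TGACGTCA are printed to show where it lies, in capitals, 68 bases before the start of Scg2, 233 before that of Foxd3, 45 before that of Th and 112 before that of Cartpt. They are written 5' to 3' on the gene's own strand and come from chr1:79440027-79440276 (minus strand), chr4:99656049-99656298 (plus), chr7:142899996-142900245 (minus) and chr13:99900684-99900933 (minus).
Scg2: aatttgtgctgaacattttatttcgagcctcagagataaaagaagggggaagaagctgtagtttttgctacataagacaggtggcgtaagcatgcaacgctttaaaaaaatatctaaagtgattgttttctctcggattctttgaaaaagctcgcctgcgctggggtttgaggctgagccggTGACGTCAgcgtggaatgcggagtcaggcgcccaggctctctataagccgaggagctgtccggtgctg
Foxd3: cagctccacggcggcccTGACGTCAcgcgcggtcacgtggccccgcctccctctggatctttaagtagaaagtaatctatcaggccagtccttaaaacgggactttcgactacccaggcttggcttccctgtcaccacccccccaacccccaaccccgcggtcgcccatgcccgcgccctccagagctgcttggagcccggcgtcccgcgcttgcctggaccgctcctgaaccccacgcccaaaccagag
Th: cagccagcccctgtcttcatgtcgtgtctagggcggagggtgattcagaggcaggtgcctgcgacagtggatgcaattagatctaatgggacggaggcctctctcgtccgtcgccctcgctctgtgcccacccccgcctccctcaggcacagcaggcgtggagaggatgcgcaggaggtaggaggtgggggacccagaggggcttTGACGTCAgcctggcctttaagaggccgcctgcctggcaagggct
Cartpt: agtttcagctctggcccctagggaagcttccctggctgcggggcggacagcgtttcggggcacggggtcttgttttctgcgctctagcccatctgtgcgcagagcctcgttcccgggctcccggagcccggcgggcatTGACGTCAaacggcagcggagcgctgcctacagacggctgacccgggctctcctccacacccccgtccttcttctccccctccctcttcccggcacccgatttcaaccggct
The 4 genes did not share a direction in the libraries: Scg2 (169 and 394 reads) and Foxd3 (5 and 31) were higher in the library labelled ERAP1+/-, Cartpt (17 and 18) was near its WT level, and Th (1 and 0) was under detection.

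A wider list of 50 neuron genes outside the 32 also held more genes that were higher than lower. Unlike the members, this list was not split into genes shared and not shared with enteroendocrine cells. Its values are therefore not a measure of neurons alone. Of its 45 genes with at least 10 reads over both libraries, 30 were higher and 15 lower, with a median difference of 0.33, and the summed ratio was 1.21 (1.16 to 1.26). The interval lay above 1 for 18 of the 45 (20.6% of all genes) and below 1 for 7 (23.8% of all genes), and included 1 for 20. The most highly counted were Ddc, which decarboxylates precursors of dopamine and serotonin (890 and 1312 reads, ratio 1.23, interval 1.13 to 1.34), the adhesion gene Ncam1 (740 and 1118 reads, 1.26, 1.15 to 1.39) and the vesicle SNARE Vamp2 (340 and 342 reads, 0.840, 0.721 to 0.979). None was past 2-fold among genes of at least 15 CPM. With at least 10 reads in either library 41 qualified, and 5 of them were past 2-fold higher and 0 lower, where 3.14% and 5.92% of all genes were. The 5 were named after their values were seen. They were Grp, gastrin-releasing peptide (10 and 71 reads, a ratio of 5.93, 3.04 to 12.9), the filament gene Ina (9 and 34), the sodium channel Scn3a (36 and 106), the secretory protein Resp18 (26 and 78) and the synapsin Syn1 (5 and 23).

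The 7 genes with intervals below 1 were Vamp2 and 6 others, also named after their values were seen. Penk, which encodes enkephalins, had 146 and 114 reads (ratio 0.652, 0.506 to 0.839), and Calcb, a calcitonin gene-related peptide of sensory neurons, had 56 and 38 (0.567, 0.365 to 0.871). Thy1, a surface protein of neurons and lymphocytes, had 173 and 134 reads (0.647), and Map2, a microtubule protein of dendrites, had 105 and 80 (0.636). The vesicle GTPases Rab3a and Rab3b had ratios of 0.745 and 0.599. Peptide, cytoskeleton and vesicle genes of this list were thus found on both sides of 1. Chosen in the same way, Nos1, which makes the nitric oxide of inhibitory neurons that also hold Vip, had 99 and 230 reads, a ratio of 1.94 (1.53 to 2.48). Hand2, a transcription factor that enteric neurons require, had 144 and 294 reads, a ratio of 1.71 (1.39 to 2.10). Both were among the 18 of 45 genes of the list with intervals above 1, where 7 lay below 1 and 20 included 1. Picked with their values known, they do not test the direction of the members.

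Of 18 further glia genes, 9 were higher and 9 lower, with a median difference of -0.01. Pmp22, a myelin gene also found in many other cells, held most of the reads (4540 and 2994, a ratio of 0.551), and without it the summed ratio of the list was 0.919 (0.862 to 0.980). Mbp (279 and 355 reads, ratio 1.06, 0.906 to 1.25) and the sodium channel Scn7a (199 and 284, 1.19, 0.991 to 1.44) had intervals that included 1. Art3, an ADP-ribosyltransferase, was past 2-fold at 15 CPM, with 167 and 82 reads, 2.44-fold lower (1.86 to 3.22).

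Genes of growth signals and of transmitter receptors were counted apart. Of 13 ligands and receptors of enteric nervous system growth with enough reads, 5 were higher and 8 lower, with a median difference of -0.31. Erbb2, the partner of Erbb3, had 356 and 342 reads (0.803, 0.690 to 0.933), and Sema3a, an axon repellent, had 228 and 206 (0.755, 0.622 to 0.915). Gfra2, the co-receptor through which neurturin acts on Ret, had 55 and 99 reads (1.50, 1.07 to 2.13), and so was higher where Ret was lower. Of 14 receptors and other genes that act on the members' transmitters, 11 were higher and 3 lower, with a median of 0.12. The interval lay above 1 for 3 (20.6% of all genes), below 1 for 1 (23.8% of all genes) and included 1 for 10. The count above 1 was thus near the share of all genes. The VIP receptor Vipr1 (604 and 756 reads, ratio 1.05, 0.938 to 1.17) and the muscarinic receptor Chrm2 (213 and 267, 1.05, 0.871 to 1.26) were near the WT level. Chrm3, the muscarinic receptor through which acetylcholine contracts the muscle, was past 2-fold with 129 and 51 reads, 3.03-fold lower (2.17 to 4.27).

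**Figure D2:**
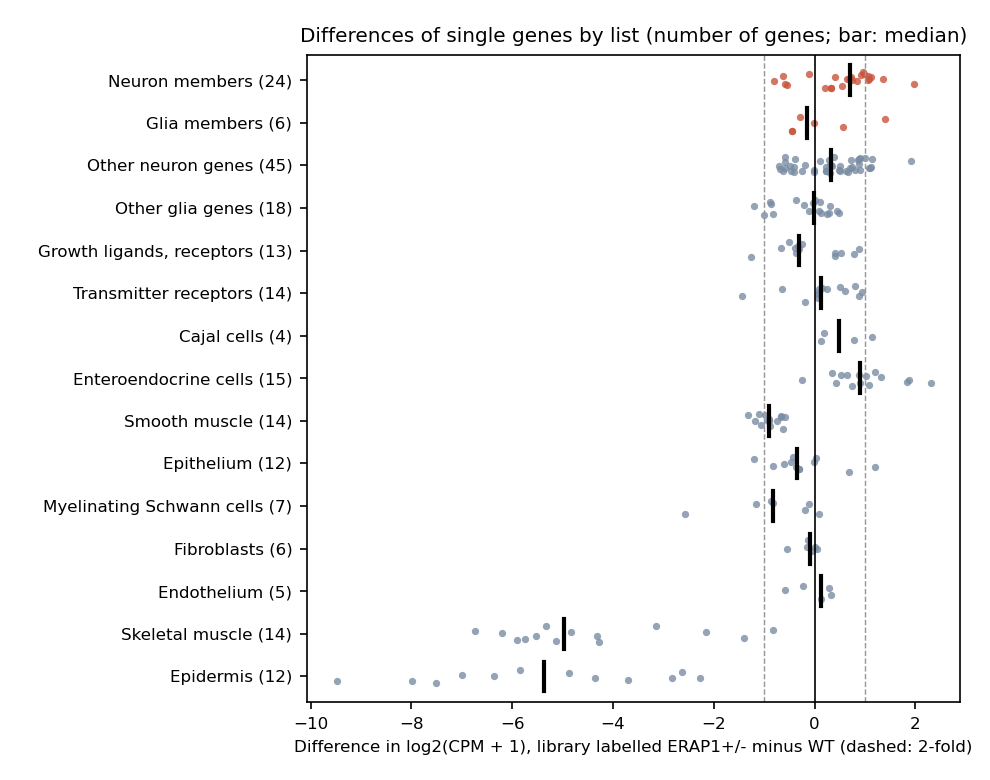
Difference in log2(CPM + 1), library labelled ERAP1+/- minus WT, with 1 point per gene and a bar at the median of each list, for the members, the wider neuron and glia lists, the ligands and receptors, and marker lists of other cell types. The number of genes with at least 10 reads over both libraries stands beside each list, and dashed lines mark 2-fold. Neuron members have a median of 0.71, smooth muscle genes -0.91 and enteroendocrine genes 0.90.

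Cells that lie beside the enteric neurons or share genes with them also differed between the libraries. All 14 smooth muscle genes were lower, with a median difference of -0.91 and a sum of 16326 CPM in WT and 8599 in the library labelled ERAP1+/-. Per smooth muscle read there were 0.0160 reads of the neuron members in WT and 0.0465 in the other library, 2.91 times as many (2.75 to 3.07), and for glia members 0.00701 and 0.0113 (1.61, 1.46 to 1.76). The 4 genes listed for interstitial cells of Cajal, the pacemaker cells of the muscle, were all higher, with a summed ratio of 1.16 (1.11 to 1.21). Whether other cells of the tissue contributed reads of these genes was not tested, so their level is not a measure of pacemaker cells alone. Most of their reads were of Ano1 (1583 and 2075, ratio 1.09, 1.02 to 1.17) and Thbs4 (1884 and 2574, 1.14, 1.07 to 1.21), while Etv1 (87 and 185) had a ratio of 1.78 and Kit (72 and 202) one of 2.34 (1.78 to 3.11), past 2-fold at 15 CPM. Markers of myelinating Schwann cells, found around extrinsic nerves, were lower for 6 of 7, with a summed ratio without Pmp22 of 0.813 (0.711 to 0.930). The interval lay below 1 for 4 of the 7 (23.8% of all genes) and included 1 for 3. Single genes ranged from Egr2, with 53 and 3 reads, to Mbp, with a ratio of 1.06. Of the 5 markers of melanocytes, which come from neural crest too, Dct had 8 and 13 reads and Pmel 6 and 5. Tyrp1, Tyr and Mlana had 0 reads in both libraries. The part of muscle content, sex and the skeletal muscle and epidermis of the WT library in the members' differences was not tested.

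Enteroendocrine cells, the hormone cells of the epithelium, share many genes with neurons, and their markers were higher in the library labelled ERAP1+/-. Of 15 such genes 14 were higher and 1 lower, with a median difference of 0.90, and their sum was 332.0 and 838.9 CPM, a ratio of 2.53 (2.42 to 2.64). The 8 neuron members that enteroendocrine cells are also known to express (Uchl1, Snap25, Syt1, Scg2, Scg3, Tac1, Gal and Cartpt) summed to 781 and 1410 reads, a ratio of 1.51 (1.38 to 1.65). The 17 others summed to 1251 and 2312 reads, a ratio of 1.54 (1.44 to 1.66), with 13 higher and 3 lower of the 16 with enough reads. The interval of the 17 overlaps that of the 8. The split followed prior knowledge of the genes, and whether epithelial cells express any of the 17 was not tested. Per enteroendocrine read, these 17 neuron members had 0.485 reads in WT and 0.296 in the library labelled ERAP1+/-, a ratio of 0.611 (0.563 to 0.664).

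The ratio of neuron to glia reads does not depend on how the libraries are scaled to each other. There were 2.29 reads of neuron members per read of glia members in WT and 4.14 in the library labelled ERAP1+/-, a 1.81-fold change (1.62 to 2.02). With the neuron genes shared with enteroendocrine cells and Erbb3 left out, the ratio was 7.97 and 12.7, a 1.59-fold change (1.27 to 2.01). The sums themselves depended on the scaling, as given with them above.

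**Figure D3:**
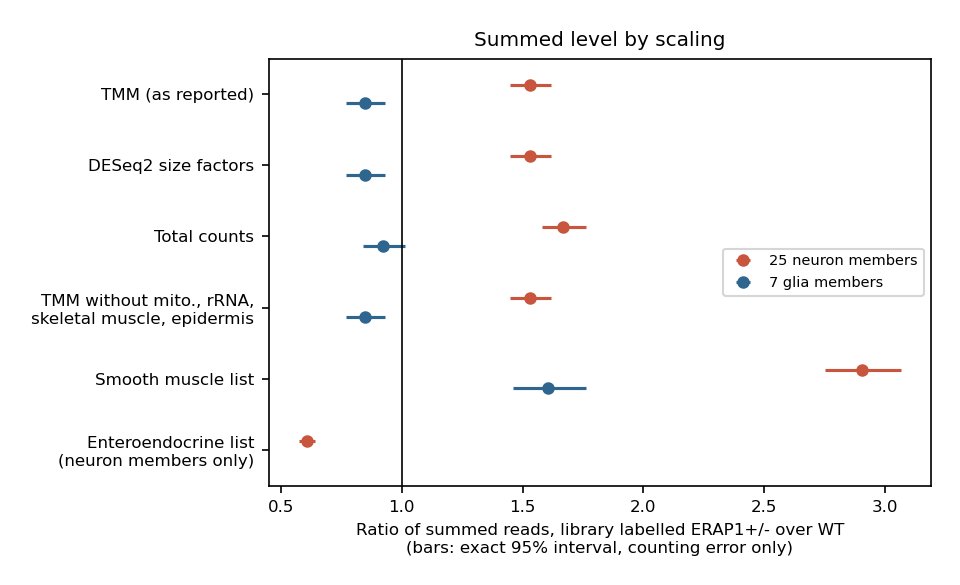
Ratio of summed reads, library labelled ERAP1+/- over WT, for neuron members and glia members under each scaling of the libraries, on a linear axis with 95% intervals for counting error only. The neuron ratio is 1.53 with TMM, 2.91 scaled to the smooth muscle list and 0.606 scaled to the enteroendocrine list, and the glia ratio crosses from 0.846 to 1.61.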

How the data were processed

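Total RNA of intestine was sequenced from transcript 3' ends (QuantSeq FWD), 1 library per genotype from 3 pooled mice. The authors deposited raw counts of reads per gene symbol, and the files were used as they are. The sources used here name both STAR with HTSeq and Bowtie2 with RSEM without saying which made the counts, and the strand setting is not given in the sources used here. The totals were 8114826 and 8907515 reads, of which mitochondrial and ribosomal RNA genes took 18.0% and 16.7%. PCR reads are not independent molecules, while the intervals treat each read as independent. The intervals may thus be too narrow even for counting error.

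TMM factors (0.958 and 1.04) were computed over all genes with edgeR 4.0.16 in R 4.3.3, and intervals with scipy 1.17.1. The ratio and interval script was tested on simulated data. With 1 library per genotype no test across samples was made. The members and lists were chosen with earlier results of these data known. Every member is given, and of each other list the 3 genes with most reads and up to 5 past 2-fold at 15 CPM. Outside that rule, and with their values known, further genes were named from the wider neuron list (those past 2-fold with at least 10 reads, those with intervals below 1, Nos1, Hand2 and Slc18a3), with Arhgap4, Egr2 and Etv1. Alternatives were DESeq2 1.42.0 size factors, other scalings, filters and pseudocounts, reduced lists and exact tests with an assumed spread. Gene positions are those of GENCODE M21 (GRCm38), matched by symbol for all 32 members. Another annotated gene overlaps 15 of them, 9 on the same strand.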

Additional observations from a re-analysis of the deposited data

How the results depend on the processing

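No paired analysis was possible because WT and ERAP1+/- were sequenced as 1 library each. Scaling by the summed smooth muscle genes, which were lower in the library labelled ERAP1+/-, moved most values by its construction: the median difference was 1.35 for the 30 members, 1.49 for neuron members and 0.58 for glia members, which reversed, the summed ratios were 2.91 for neurons and 1.61 for glia, which reversed, and 12 members passed 2-fold at 15 CPM and 21 with at least 10 reads. Under it, 28 members were higher and 2 lower, with Nefm, Tac1, Cartpt, Sox10, Gfra3, Erbb3 and Cdh19 changing sign, and 22 of 30 members moved beyond their counting interval, where 0 of 30 did under the other 4 alternatives for single members. That scaling moved the median of all genes by 0.823. Scaling by total counts moved it by 0.114, made 22 members higher and 8 lower (Gfra3 changed sign), and gave a neuron ratio of 1.67 and 6 members past 2-fold at 15 CPM. Scaling by the enteroendocrine list, which was higher in the library labelled ERAP1+/-, gave by its construction a neuron ratio of 0.606, which reversed. That scaling was chosen after seeing the data. So were the neuron sum without genes shared with enteroendocrine cells, the count without genes shared with epithelium and the glia list without Pmp22. Against 3 members past 2-fold at 15 CPM, 7 passed with no filter, 7 with a level of at least 2 and 0 at 4-fold. The edgeR exact test called 10 members where the biological coefficient of variation was assumed to be 0.1, and 0 where it was assumed to be 0.4. A pseudocount of 0.1 took the count with at least 10 reads from 7 to 11, of which 10 were higher and 1, Ret, lower. Without Erbb3, the glia ratio was 0.968. The other alternatives left these counts within 1.5 times and the medians and ratios in their direction. Depth limits Th, Fabp7, Chat, Gfra3 and Npy, each under 35 reads over both libraries. It also limits Dbh and Foxd3, the members with the widest differences, which had 6 and 5 reads in WT.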
